A study of Sus scrofa with 8 samples.

Results

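The collagen chain genes of the pig were read from the gene annotation that the authors used to count transcripts in tracheal submucosal glands (SMGs). They are the protein-coding genes whose name is COL, a type number, the letter A and a chain number. The rule found 43 genes of 20679 protein-coding genes, and these 43 covered 28 collagen types. SMGs were dissected from newborn pigs with the genotype Wild-type (4 animals) or CFTR-/- (4 animals), 1 library per animal, after the surface epithelium had been scraped off. CFTR-/- pigs lack the anion channel that is defective in cystic fibrosis, and the peeled layer kept connective tissue around the glands. Libraries were made with the Chromium Single Cell 3′ v2 kit, which reads the part of a transcript near its 3′ end. The same annotation, an edited form of the NCBI RefSeq annotation of the Sscrofa11.1 genome, served all 8 libraries, so the values below are properties of gene models and have no replicate error. Counts per cell were not used here, so that sequencing depth is unknown and neither collagen levels nor the cell types that hold them are described.

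Collagens are extracellular proteins in which 3 chains wind around each other into a triple helix. Glycine, the only residue small enough for the center of the helix, recurs in each triplet, so that the sequence repeats as Gly-X-Y, where X and Y are often proline and hydroxyproline. Fibrillar collagens (types 1, 2, 3, 5 and 11) have one long helix and assemble into the banded fibrils of connective tissue, cartilage and airway wall. The other types form basement membrane networks, beaded filaments or anchoring fibrils, sit on the surface of fibrils, or span the plasma membrane. Of the 43 genes, 9 encode fibrillar chains and 34 encode other chains.

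The repeat is visible in the coding exons themselves. A triplet takes 9 bp, so that an exon of 45 bp can hold 5 triplets and one of 54 bp can hold 6. A further common length is 2 times 54 bp, enough for 12 triplets, and is called the 12-triplet length here. The first 27 bases of selected exons are given 5′ to 3′ on the coding strand of Sscrofa11.1, with the bases of glycine codons of the repeat in capitals. The first 5 lines give, for 5 fibrillar chains, the first 54 bp exon that lies wholly in the repeat and begins with a glycine codon. The next pair gives the first exon of 45 bp and the first of 12-triplet length in COL1A1, and the last pair shows a contrast from the basement membrane chains COL4A1 and COL4A2, where an exon begins inside a glycine codon.
COL1A1 exon 8, minus strand, chr12:26393125-26393151: GGTccccaaGGTttccaaGGCccccct
COL1A2 exon 8, plus strand, chr9:74184187-74184213: GGCcctcaaGGTttccaaGGAcctgct
COL2A1 exon 6, minus strand, chr5:78374201-78374227: GGAcctgcaGGTgaacaaGGAcccaga
COL3A1 exon 6, plus strand, chr15:93571887-93571913: GGTccccctGGCccacctGGTccccct
COL11A2 exon 15, minus strand, chr7:25221632-25221658: GGTcagcctGGGagccctGGCctgaaa
COL1A1 exon 7 (45 bp), minus strand, chr12:26393329-26393355: GGTccttctGGTcctcgtGGTctccct
COL1A1 exon 21 (12-triplet length), minus strand, chr12:26389965-26389991: GGTcccactGGTgttcaaGGCccccct
COL4A1 exon 20 (36 bp), minus strand, chr11:76904552-76904578: GCttcccaGGAttgcaaGGCcagccgG
COL4A2 exon 23 (107 bp), plus strand, chr11:77133833-77133859: GTgagcgaGGCcagccaGGTgtcccaG
Exons are numbered by coding exon. In the fibrillar exons shown the border falls in front of a whole glycine codon, and in the 2 exons of COL4A1 and COL4A2, chosen because they begin inside a codon, its first base is in the exon before. These chains have both kinds of border: 12 exons of the repeat began with a whole glycine codon and 11 inside one in COL4A1, and 9 and 9 in COL4A2.

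Fibrillar chain genes were divided into many coding exons. In the transcript with the longest coding sequence of each gene, COL1A1 and COL3A1 had 51 coding exons, COL1A2 had 53, COL5A2 54 and COL2A1 55. These chains make up the abundant fibrils of types I, II and III and, for COL5A2, the type V collagen that starts them. The remaining 4 chains of types V and XI, which control fibril width, had more: 66 in COL11A2, 67 in COL5A3 and 69 each in COL5A1 and COL11A1. The fibrillar chains therefore fell into a group of 51 to 55 and a group of 66 to 69 coding exons, with no chain between. The median was 55 in the 9 fibrillar chains, 40.5 in the 34 other chains (range, 2 to 118) and 7 in all 20674 protein-coding genes with a coding model. The groups of chains overlapped, because 11 of the 34 other chains had at least 51 coding exons. The highest was COL7A1, the chain of the anchoring fibrils beneath epithelia, with 118, followed by COL16A1 with 70 and COL12A1 with 65, both fibril-associated. The lowest were COL8A1, COL8A2 and COL10A1, the short-chain network collagens, with 2 coding exons each, of which the longer held 1910, 1919 and 1871 coding bp.

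The 9 fibrillar genes lie on 8 chromosomes of Sscrofa11.1. COL1A1 (chr12:26379087-26397180) spanned 18.1 kb, COL11A2 (chr7:25204496-25234880) 30.4 kb, COL2A1 (chr5:78350131-78380893) 30.8 kb, and COL1A2 (chr9:74174484-74210407) 35.9 kb. COL3A1 (chr15:93556914-93596375) spanned 39.5 kb and COL5A3 (chr2:68828197-68869914) 41.7 kb. The longest were COL5A1 (chr1:273934219-274083264) with 149 kb, COL11A1 (chr4:115638381-115841679) with 203 kb and COL5A2 (chr15:93611856-93981131) with 369 kb. COL1A1 and COL5A2 thus differed widely in length although their numbers of coding exons, 51 and 54, were close. The other chains spanned 6.99 kb (COL10A1) to 469 kb (COL25A1), with a median of 142 kb, against 39.5 kb in the fibrillar chains and 19.2 kb in all protein-coding genes.

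Exons of 45 bp, 54 bp and 12-triplet length were the majority of fibrillar coding exons. Of 535 fibrillar coding exons, 237 (44.3%) were 54 bp long, 73 (13.6%) were of 12-triplet length and 51 (9.53%) were 45 bp. In all 198423 coding exons of the annotation, 0.678% were 54 bp, 0.833% were of 12-triplet length and 0.392% were 45 bp. The 3 lengths together accounted for 67.5% of fibrillar coding exons, 25.1% of the 1450 coding exons of the other chains and 1.9% of all coding exons. Per gene, the share ran from 62.3% in COL5A1 to 70.6% in COL3A1. Between them lay COL11A1 (65.2%), COL2A1 (65.5%), COL5A2 (68.5%), COL1A1 (68.6%), COL5A3 (68.7%), COL11A2 (69.7%) and COL1A2 (69.8%). The other chains ran from 0 to 77.0% with a median of 12.3%, and 32 of the 34 were below every fibrillar chain.

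**Figure D1:**
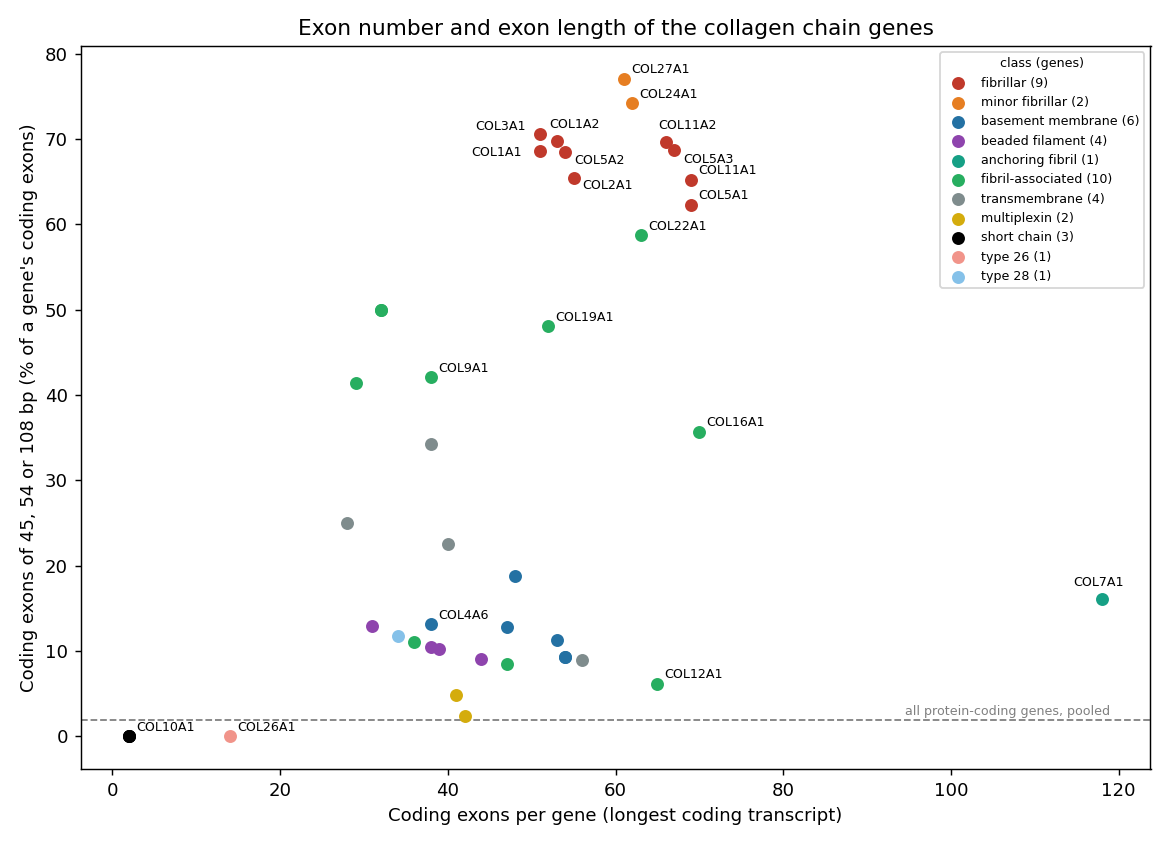
Coding exons per gene (horizontal axis) against the percentage of these exons that are 45 bp, 54 bp or 2 times 54 bp long (vertical axis), with 1 point per gene, colored by class. The dashed line is the pooled value of all protein-coding genes, 1.9%, and the 9 fibrillar chains lie between 62.3 and 70.6% with only COL24A1 and COL27A1 above them.

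The exceptions were COL24A1, with 74.2%, and COL27A1, with 77.0%. These minor fibrillar chains were counted among the other types and had 33 exons of 54 bp each, more than any other gene of the annotation. Next among the other chains was COL22A1, a fibril-associated collagen of tissue junctions, with 58.7%. Among all protein-coding genes, 19 had 10 or more coding exons of 54 bp, and 18 of these were collagen chains. The remaining one was MUC19, a gel-forming mucin of glands, with 16; it was singled out after its value had been seen. At the low end, COL8A1, COL8A2, COL10A1 and COL26A1 had no exon of any of the 3 lengths, and the other 39 chains had at least 1 exon of 54 bp.

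Exons of 12-triplet length were more restricted to the fibrillar chains than exons of 54 bp. They were counted by length alone. All 73 in the fibrillar chains and 21 of the 25 in the other chains lay wholly in the repeat. Each fibrillar chain had 8 exons of this length except COL1A1, which had 9. Of the 34 other chains, 25 had none. The 9 that had any were COL4A4 with 5, COL27A1 with 5, COL4A6 and COL24A1 with 4 each, COL4A2 with 3, and COL7A1, COL13A1, COL16A1 and COL25A1 with 1 each. Exons of 54 bp were more widely shared, and formed 25.9% of the coding exons of the 10 fibril-associated chains. Exons of 45 bp numbered 4 to 7 in each fibrillar chain, and 12 in COL7A1, 11 in COL16A1 and 10 in COL22A1.

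**Figure D2:**
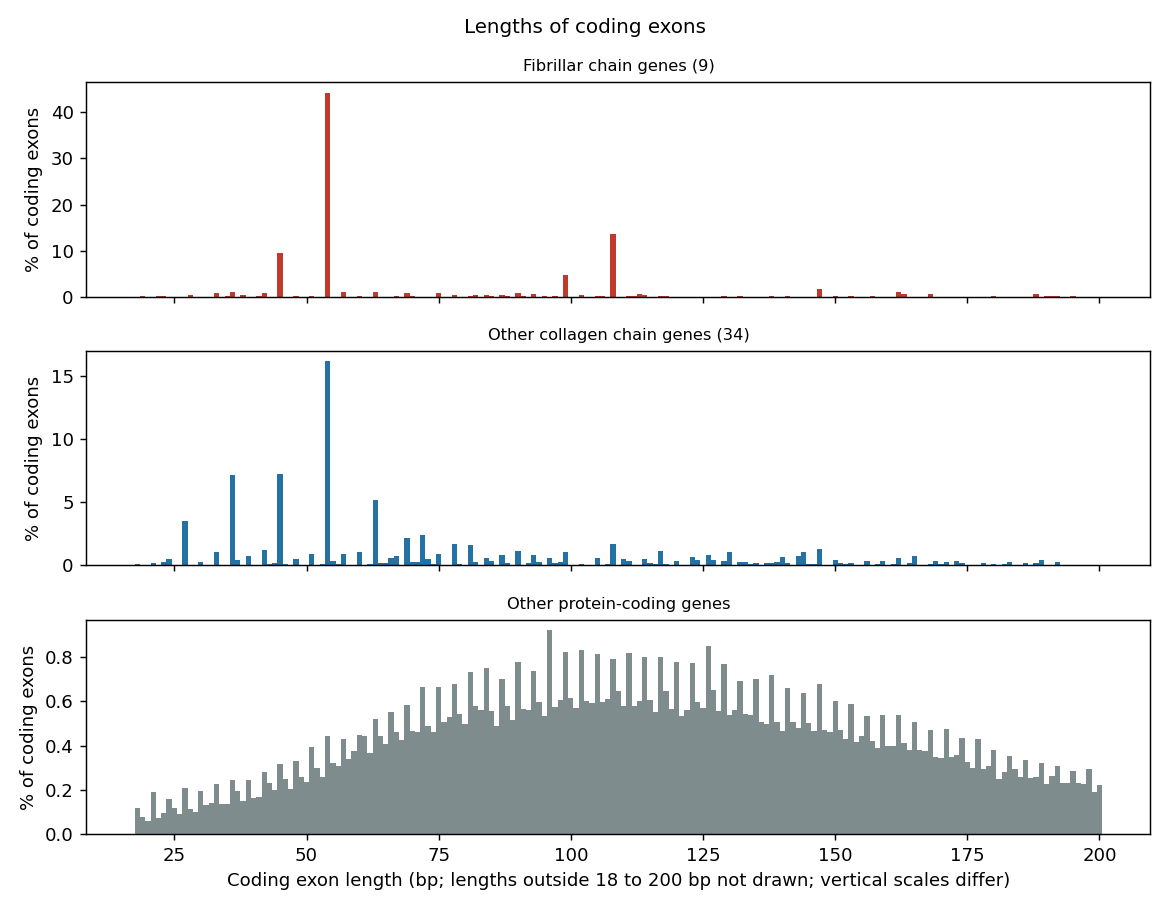
Percentage of coding exons (vertical axes, which differ in scale) at each length from 18 to 200 bp (horizontal axis) in the 9 fibrillar genes, the 34 other collagen chain genes and the other protein-coding genes. The fibrillar genes peak at 54 bp (44.3%), the 12-triplet length (13.6%) and 45 bp (9.53%), whereas the other protein-coding genes form a broad hump.

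The 3 lengths were more frequent inside the helix than among all coding exons in both groups of chains. A coding exon was assigned to the helix when every base of it lay in runs of at least 6 Gly-X-Y triplets. In the fibrillar chains 407 exons met this rule, and 236 of these (58%) were 54 bp, 73 were of 12-triplet length, 51 were 45 bp and 25 were 99 bp. The 3 lengths made up 88.5% of helix exons in the fibrillar chains, against 67.5% of all their coding exons, and 51.4% in the other chains, against 25.1%. Exons of 54 bp alone were 33.2% of the helix exons of the other chains, against 16.1% of all their coding exons. This pooled share hides large differences between classes. It was 64% in the minor fibrillar and 55.2% in the fibril-associated chains, near or above the fibrillar 58%, and at most 22.2% in every other class with helix exons. Of the 407 fibrillar helix exons, 403 (99%) had lengths that were multiples of 9, and all 407 began with a whole glycine codon. Of the 662 helix exons of the other chains, 93.8% had lengths that were multiples of 9 and 87% began with a whole glycine codon. Over all coding exons regardless of the helix, 78.3% of fibrillar lengths, 53.4% of the other chains' lengths and 14.4% of lengths in all protein-coding genes were multiples of 9. The helix rule itself requires triplets, so the first of these shares describe how the repeat is cut into exons and are no independent evidence of the repeat.

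The cut differed between classes and also within the transmembrane class. In COL17A1, a transmembrane chain of hemidesmosomes that anchors basal epithelial cells, 16 of 16 helix exons began inside a glycine codon and none began with a whole one. In the other transmembrane chains most began with a whole glycine codon: 27 of 28 in COL13A1, 17 of 19 in COL23A1 and 24 of 26 in COL25A1. In the 6 basement membrane chains, 57 of 116 helix exons (49.1%) began inside a glycine codon and 59 with a whole codon. In COL7A1 all 60 helix exons, and in the 4 chains of type VI, which form beaded filaments around cells, all 54 helix exons, began with a whole glycine codon. Every border between 2 coding segments was counted as an intron, including borders at gaps under 30 bp, which are too short for one. Introns that lay between 2 codons rather than within one made up 93.2% of the introns between coding exons of fibrillar chains, 65.3% of those of other chains and 45% of those of all protein-coding genes. The share was 39.9% in the basement membrane chains and 0 in COL17A1, COL8A1, COL8A2 and COL10A1, the last 3 of which have a single such intron each.

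The order of exon lengths was shared within 2 sets of fibrillar chains. Exon lengths were compared as a series, counted from the 3′ end of the coding sequence, with segments joined across gaps under 30 bp and the bases of the gap counted in. COL1A2 and COL5A2 had 42 exons in a row with the same lengths, which together held 2988 bp, and COL3A1 shared 41 in a row with each of them. COL1A1 shared 26 in a row with COL1A2. Where COL1A2, COL3A1 and COL5A2 had a pair of 54 bp exons, at positions 19 and 20 from the end, COL1A1 had a single exon of 12-triplet length, which makes up its total of 9 such exons beside 21 of 54 bp. COL2A1 shared 22 to 24 in a row with the other 4, and its series was interrupted at position 23 by an exon of 44 bp in a model with a gap of a few bases. In the second set, COL5A3 and COL11A2 had 49 exons in a row with the same lengths, COL5A3 and COL11A1 had 38, and COL5A1 had 24 with each of these 3 chains. Of the 36 pairs of fibrillar chains, 16 shared at least 10 exons in a row, and these were the pairs within the 2 sets. The fibrillar pairs across the sets shared 6 to 9 in a row, against 22 to 49 within the sets. Any limit from 10 to 22 therefore gives the same split. Of all 903 pairs of collagen chains, 49 shared at least 10, and 14 of these crossed classes.

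**Figure D3:**
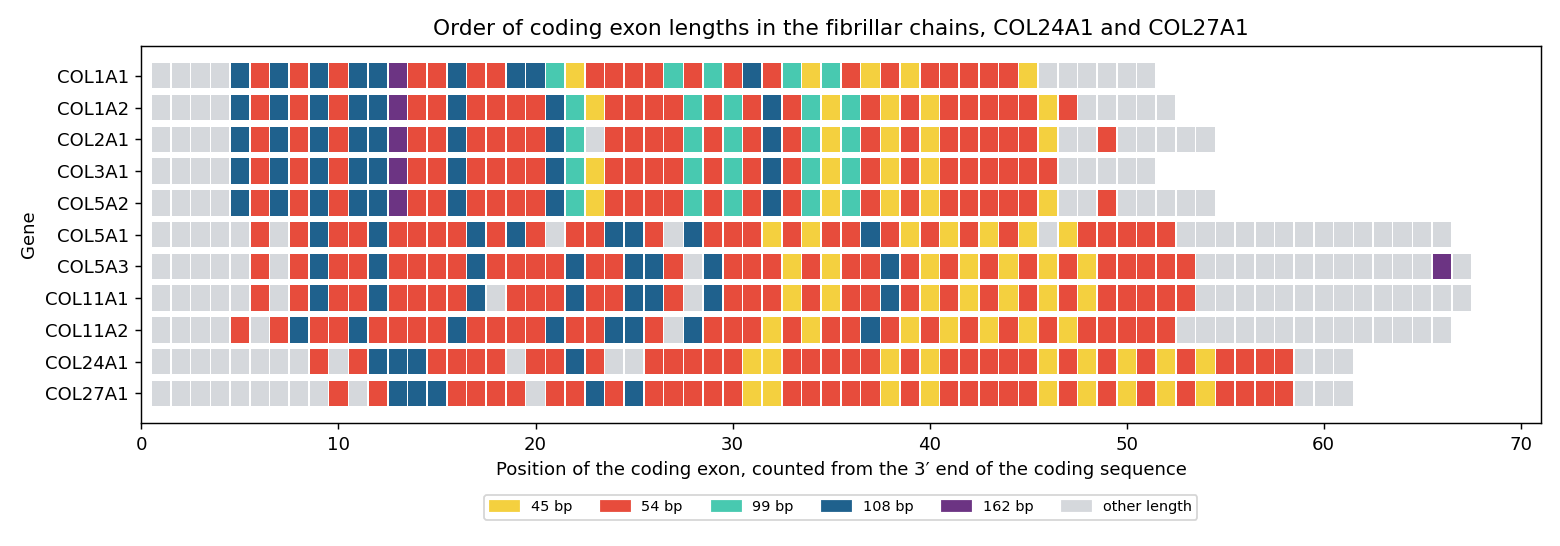
Coding exons of the 9 fibrillar chains, COL24A1 and COL27A1 (rows), placed by position from the 3′ end of the coding sequence (horizontal axis) and colored by length in bp; segments divided by a gap under 30 bp are joined. The upper 5 rows share one series of lengths, the next 4 a second, and COL24A1 and COL27A1 share 33 exons in a row.

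COL24A1 and COL27A1 shared 33 exons in a row with each other. With COL5A3, COL11A1 and COL11A2 they shared 14 and with COL1A2 11. Elsewhere, COL9A1 and COL9A2 shared 21 in a row, and COL9A3 shared 19 with each; the type IX chains sit on the surface of cartilage fibrils. COL21A1 shared 17 with each type IX chain. COL6A5 and COL6A6, which lie close together on chromosome 13, shared 21. Among the basement membrane chains, COL4A2 and COL4A6 shared 13, and COL4A1 and COL4A5 shared 10. The longest coding exon was 213 bp in COL4A1, COL4A3 and COL4A5, and 287 bp in COL4A2, COL4A4 and COL4A6, so that these 6 chains fell into a pair of sets of 3. The chains are related by descent, so these series are not independent of each other, and no test was made of them.

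The number of encoded Gly-X-Y triplets was nearly constant in the fibrillar chains. The totals include a separate short run of 11 (COL11A1) to 21 (COL2A1) triplets before the long one. Counting triplets in runs of at least 6, COL2A1 had 359, COL5A2 357, COL3A1 356, COL1A1 and COL11A2 355 each, COL1A2 and COL5A3 354 each, COL5A1 353 and COL11A1 348. The 34 other chains ranged from 34 triplets in COL26A1, 50 in COL20A1 and 78 in COL12A1 to 428 in COL4A1, 444 in COL4A5 and 462 in COL7A1, with a median of 160.5. At least 348 triplets were reached by 6 other chains: COL7A1 and every type IV chain except COL4A6, which had 293. A run of 6 triplets occurred in 43 of 43 chains and in 1.12% of all protein-coding genes.

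The fibrillar repeat was interrupted less often than that of most other chains. An unbroken run of 337 to 343 triplets was encoded by 6 fibrillar chains: COL5A3 (337), COL1A1 and COL11A2 (338 each), COL1A2 and COL5A2 (339 each) and COL3A1 (343). The other 3, COL11A1 (245), COL5A1 (178) and COL2A1 (174), were broken in models that contain gaps of 1 or 2 bp in the coding sequence. COL1A2 has such a gap too and encoded an unbroken run. The positions of the gaps were not compared with those of the runs, so COL1A2 does not bear on the breaks. The part of the gaps in the breaks was not tested. No other chain exceeded 217 triplets in a row (COL27A1). The runs numbered 18 to 27 per chain in type IV, where the longest run was 39 to 66 triplets, 2 to 4 per chain in the fibrillar collagens, and a median of 7 over the 34 other chains, those of type IV included. In COL9A1, COL9A2, COL9A3, COL21A1 and COL22A1 the longest run was 113 triplets. The repeat covered 57.6 to 77.8% of the residues of fibrillar chains, 85.1% of those of COL9A3 and 7.5% of those of COL12A1.

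The glycine codons of the helix also differed. In the fibrillar chains 37.5% of 3191 helix glycines were encoded by GGT, 27.7% by GGA, 23.9% by GGC and 10.8% by GGG. In the other chains GGT encoded 18.4% of 7260 helix glycines, and among all glycine codons of protein-coding genes it encoded 14.9%. GGT was highest in COL1A2 (53.7%), COL1A1 (48.7%), COL11A1 (45.7%), COL3A1 (45.5%) and COL2A1 (40.7%), and lower in COL5A2 (36.1%), COL5A3 (24%), COL11A2 (23.1%) and COL5A1 (20.4%). The last 3 lay within the range of the other chains, whose highest value was 33.1% in COL4A5. GGG was rarest in COL1A1, at 0.845%. Proline occupied 33.6% of X and 34.8% of Y positions in fibrillar chains, against 25.2% and 41.5% in the other chains, and 48% of Y positions in type IV. Cysteine occurred at 2 of the X and Y positions of all fibrillar triplets and at 18 of those of type IV.

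Of the 43 chains, 5 lay head-to-head with another protein-coding gene, that is, on opposite strands with start sites facing away from each other and at most 1000 bp apart. This was 11.6%, near the 12.4% of all protein-coding genes, so the frequency of such pairs was close to the background. For 4 of the 5, the partner was another collagen chain, and at a limit of 500 bp both of these pairs were lost and 1 chain, COL5A2, was left. COL4A1 (minus strand) and COL4A2 (plus strand) on chromosome 11 started at 76997409 and 76996885, so that the annotated 5′ ends overlapped with start sites 524 bp apart. A second COL4A2 transcript started at 76997543, beyond the COL4A1 start and without overlap. That start lay within 500 bp of the COL4A1 start, so the loss of this pair at 500 bp holds only for the outermost annotated starts. COL4A4 (minus strand) and COL4A3 (plus strand) on chromosome 15 started at 128612302 and 128611640, again with overlapping 5′ ends and start sites 662 bp apart. These 4 chains are the widespread basement membrane pair and the pair of the kidney, lung and other specialized membranes. The only fibrillar chain in a pair was COL5A2, whose start at 93981131 on chromosome 15 lay 77 bp from that of WDR75, a protein of ribosome assembly, with overlapping 5′ ends. With partners of any biotype COL11A1 was added, next to the uncharacterized LOC110260369 at 773 bp.

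The remaining pair of type IV chains was not head-to-head by the rule. COL4A6 and COL4A5 are neighbors on the X chromosome with the same divergent arrangement, yet their start sites, 88750938 and 88958837, were separated by 207898 bp. No gene was annotated in between, and this stretch held no run of 10 or more unknown bases. The COL4A6 model had a 5′ UTR of 0 bp and 38 coding exons, against 47 in COL4A2 and 48 in COL4A4. Whether a first exon of COL4A6 is missing from the model was not tested. Among tail-to-tail neighbors, COL3A1 and COL5A2 faced each other on chromosome 15 with 15480 bp between their 3′ ends, and COL19A1 and COL9A1 faced each other on chromosome 1 with 1098 bp between them.

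Windows from 250 bp before to 50 bp after each annotated start were searched on both strands for CCAAT, for GGGCGG and for TATAAA. The first of these was found in 6 of 9 fibrillar windows, 12 of 34 windows of other chains and 35.6% of the windows of all protein-coding genes. GGGCGG was found in 5 of 9, 17 of 34 and 49%. TATAAA was found in 1 of 9, 7 of 34 and 11.6%. On the coding strand alone, TATAAA occurred in the windows of 4 of 43 chains (9.3%), near the 7.42% of all protein-coding genes. It is shown in capitals within the genome sequence of these 4 chains, of which COL1A2 is the only fibrillar one.
COL1A2, plus strand, chr9:74174449-74174466: tggccgTATAAAtagggc
COL10A1, minus strand, chr1:81773839-81773856: aaacagTATAAAtactgc
COL6A5, minus strand, chr13:2174410-2174427: tttaccTATAAAatcgca
COL13A1, plus strand, chr14:72786725-72786742: cctgccTATAAAtaaccc
The match begins 29 bp before the start of COL1A2, 32 bp before that of COL10A1, 17 bp before that of COL6A5 and 49 bp before that of COL13A1. For models without a 5′ UTR, such as COL4A6, the window surrounds the first codon and not a promoter. The same may hold for models with a short one, such as COL5A1 (4 bp), COL6A3 (5 bp), COL27A1 (15 bp) and COL11A1 (32 bp). COL5A1 is among the fibrillar windows with GGGCGG, and COL11A1 among those with CCAAT.

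In a 3′ assay reads fall near the end of transcripts, where a gene model has its 3′ UTR. All 9 fibrillar chains had one, from 356 bp in COL5A1 and 436 bp in COL2A1 through 842 bp in COL5A3, 846 bp in COL1A2, 948 bp in COL3A1 and 1007 bp in COL11A2 to 1445 bp in COL1A1, 1528 bp in COL5A2 and 1544 bp in COL11A1. The median was 948 bp in the fibrillar chains, 1046 bp in the other chains and 715 bp in all protein-coding genes. The difference between the groups of chains was small against the range of either, and it changed sign when COL24A1 and COL27A1 were counted as fibrillar (1007 against 976.5 bp) or when models with small gaps in the coding sequence were left out (1007 against 822 bp). The other chains ran from 0 bp in COL10A1, 116 bp in COL28A1 and 139 bp in COL20A1 to 4584 bp in COL4A4, 5329 bp in COL25A1 and 7456 bp in COL19A1. COL10A1, the collagen of hypertrophic cartilage, was the only chain without a 3′ UTR, a state found in 8.88% of all protein-coding genes. The next gene on its strand, FRK, lay 52285 bp downstream.

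COL3A1 was the only collagen chain whose exons differed from the RefSeq model, 1 of 43 (2.33%), against 1.2% of all protein-coding genes. The paper describes manual checks of genes expressed in airways, so the 1.2% also covers genes that were not checked. Among the genes it checked, the paper reports a share of modified annotations above both of these percentages. Which collagen chains were checked is not known here. COL3A1 encodes the chain of type III collagen, the fibrils of elastic and young connective tissue. The authors moved its 3′ end on chromosome 15 from 93595678 to 93596375, which added 697 bp and lengthened the 3′ UTR from 251 to 948 bp. At 251 bp it had been below every other fibrillar chain, and at 948 bp it was the median. The coding sequence was left as it was. A poly(A) signal, AATAAA or ATTAAA, stood in the last 50 bp before both the old and the new end. Over the 43 chains 32 ends (74.4%) had such a signal, against 60.9% of all protein-coding genes, and the 2 fibrillar exceptions were COL5A1 and COL11A2. No collagen exon overlapped an exon of another gene on the same strand, and the closest downstream gene on the same strand was 925 bp away from COL7A1 (UCN2) and 976 bp away from COL23A1 (PHYKPL).

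**Figure D4:**
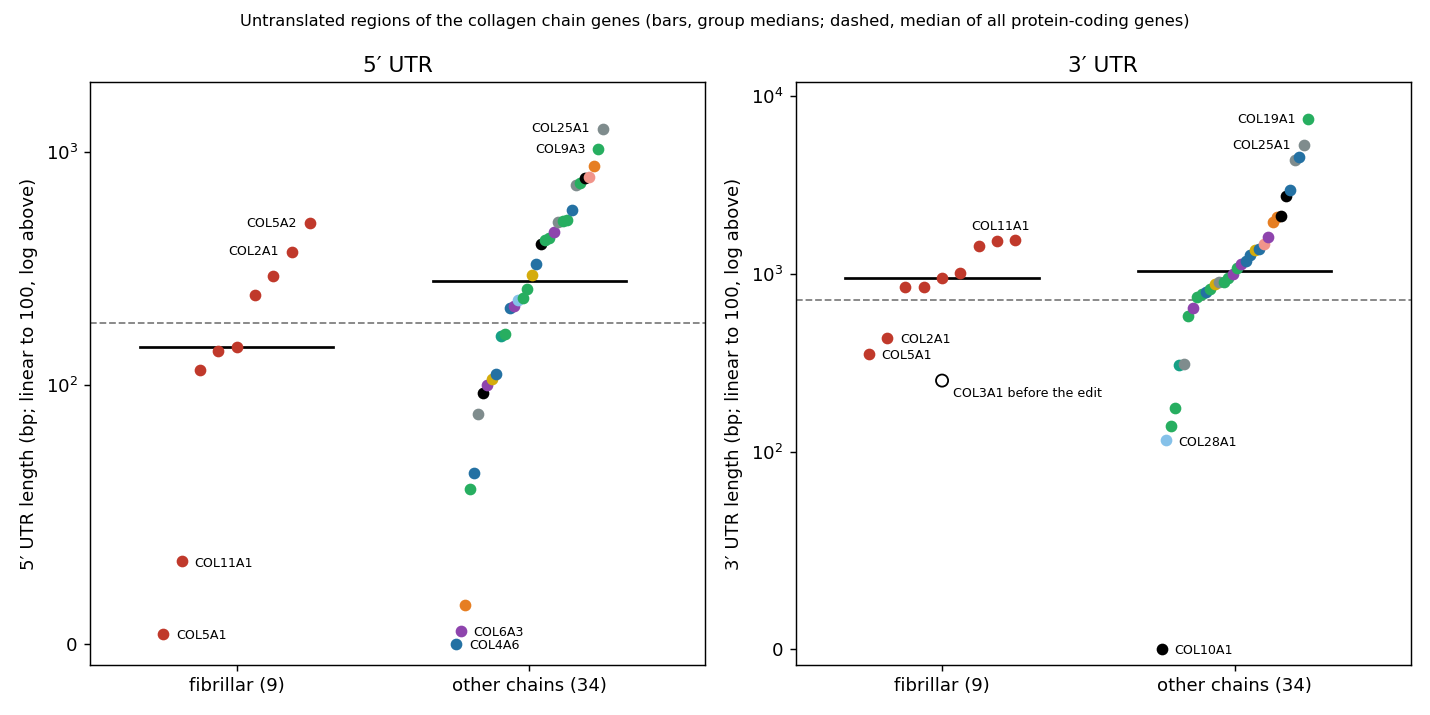
Length of the 5′ UTR (left) and 3′ UTR (right) of each collagen chain in bp, on an axis that is linear to 100 bp and logarithmic above, with 1 point per gene in the class colors of the other plots, sorted within each group. Bars are group medians (5′ UTR, 146 and 279.5 bp; 3′ UTR, 948 and 1046 bp), dashed lines are the medians of all protein-coding genes, and the open circle is COL3A1 before the edit at 251 bp.

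The 5′ UTR was 4 bp long in COL5A1, 32 bp in COL11A1, 116 bp in COL3A1, 141 bp in COL1A2, 146 bp in COL5A3, 244 bp in COL11A2, 294 bp in COL1A1, 374 bp in COL2A1 and 498 bp in COL5A2. The median of 146 bp in fibrillar chains was below the 279.5 bp of the other chains and the 185 bp of all protein-coding genes. Of the 34 other chains, 11 had a longer 5′ UTR than every fibrillar chain. The other chains ran from 0 bp in COL4A6, 5 bp in COL6A3 and 15 bp in COL27A1 to 875 bp in COL24A1, 1033 bp in COL9A3 and 1266 bp in COL25A1. COL4A6 was the only chain without a 5′ UTR, against 11.4% of all protein-coding genes. The fibrillar median was 244 bp and that of the other chains 238 bp when models with gaps in the coding sequence were left out, so that the order of the groups turned.

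Such gaps touched many collagen models. In 15 of 43 chains (34.9%), and in 11.3% of all protein-coding genes, the coding sequence was interrupted by a gap under 30 bp, too short for an intron. These are shares of genes, and the median coding sequence was 4521 bp in the chains against 1221 bp in all protein-coding genes. No rate of gaps per base was taken. The gaps of the collagen chains were 1 or 2 bp long. They were COL1A2, COL2A1, COL5A1 and COL11A1 among the fibrillar chains and 11 other chains. Joined across these gaps, COL5A1 had 66 coding exons in place of 69, COL11A1 67 in place of 69, COL2A1 54 in place of 55 and COL1A2 52 in place of 53. The median of the fibrillar chains then was 54 and their share of exons of these 3 lengths 68.4%, against 40.5 exons and 25.4% in the other chains.

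Genes with related functions, in 2 lists, were read in the same way. The 32 genes that make and cross-link collagen, such as the prolyl and lysyl hydroxylases, the chaperone SERPINH1 and the lysyl oxidases, had a median of 13 coding exons, and 3 of their 450 coding exons (0.667%) had one of the 3 lengths. None had a run of 6 Gly-X-Y triplets. Of the 32 genes, 7 (21.9%) stood in head-to-head pairs, against 12.4% of all protein-coding genes, among them P3H4 and FKBP10, partners in the modification of helix lysines, which were paired with each other with starts 203 bp apart. Of 23 genes that carry short collagen-like repeats outside the collagens, such as complement C1q, surfactant proteins and collectins, 22 had a run of 6 or more triplets. Their median was 24 triplets and their highest value 60, below every collagen chain except COL26A1 (34) and COL20A1 (50). Of their 174 coding exons, 13 (7.47%) had one of the 3 lengths.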

How the data were processed

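The authors deposited 1 gene annotation on Sscrofa11.1, made by editing NCBI Sus scrofa Annotation Release 106 (3′ UTRs added or elongated, overlapping models shortened, genes renamed or added), and used it as the reference of Cell Ranger 3.0.2 (version per the submitters' processing notes). Per the labels and the file headers its values are coordinates counted from 1. It holds no column per sample (0 such columns), and counts per cell were not used here.

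Coding exons, exon lengths and Gly-X-Y runs came from the transcript with the longest coding sequence, stop codon included. The 3′ UTR came from the coding transcript ending farthest 3′, the 5′ UTR from the one starting farthest 5′. Coding sequences, promoter windows and poly(A) windows were read from the RefSeq genome of the same build, whose unedited annotation gave the models before editing. Head-to-head pairs were within 1000 bp. Exon counts, length shares, UTR lengths and head-to-head pairs were tested on simulated gene models without small coding gaps, and Gly-X-Y runs on simulated proteins. The other measures, such as exon borders in the helix and shared exon series, were not tested in this way. No statistical test was made, since the annotation has no replicates and related chains are not independent. The members, classes and lists were chosen with earlier results of these data known. Named were all fibrillar, head-to-head and edited chains, chains with a missing or short (under 100 bp) UTR, the 3 lowest and highest other chains per measure, and chains of a type described as a whole; genes of the 2 lists and others outside this rule were chosen after their values were seen. Alternatives changed the transcript, exon lengths, pair distance, run length and the place of COL24 and COL27. Python 3.11.15, pysam 0.24.0, numpy 2.4.6 and matplotlib 3.10.9 were used.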

Additional observations from a re-analysis of the deposited data

How the results depend on the processing

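Of 23 alternatives to 6 results, 16 stayed within 1.5 times the reported value with the same direction, 4 moved and 3 reversed; 5, those that joined or left out models with gaps under 30 bp, were chosen after seeing the data. The difference in coding exons, in exons of 45 bp, 54 bp and 12-triplet length and in Gly-X-Y triplets were among the 16 throughout. Head-to-head chains numbered 1 at a limit of 500 bp in place of 5, with distances taken between the outermost annotated starts. The fibrillar minus other median 3′ UTR, -98 bp, became -200 bp with the longest coding sequence and -200 bp with RefSeq models before the edits, where COL3A1 is shorter, and reversed to 30.5 bp with COL24 and COL27 as fibrillar and to 185 bp without models with gaps. The 5′ UTR difference, -133.5 bp, became -204 bp with the longest coding sequence and reversed to 6 bp without models with gaps. The cause of the moves other than the COL3A1 edit was not tested. No paired analysis was possible because gene models carry no measurement of single animals. Gene models limit these values: 14 of the 43 are marked low quality, and 1 chain is on an unplaced scaffold.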

Other observations

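Some genes of collagen products lie outside the naming rule. Another 35 protein-coding genes carry a placeholder name and a product called a collagen alpha chain, and 33 of them had no run of 6 Gly-X-Y triplets. The other 2, named after their values had been seen, were LOC100623720, described as collagen alpha-1(VI) chain, with 35 coding exons and 109 triplets, and LOC100517188, described as collagen alpha-4(VI) chain-like, with 40 coding exons and 105 triplets. These values are like those of the named type VI chains, which had 31 to 44 coding exons and 103 to 109 triplets, and no protein-coding gene was named COL6A1. Only these 2 genes and 39 of the 43 collagen chains had 100 or more triplets among all protein-coding genes. The 35 genes had a median of 5 coding exons, 14 of their 271 coding exons (5.17%) were 45 bp, 54 bp or of 12-triplet length, 24 of them had no 5′ UTR and 15 no 3′ UTR.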
